A study of Mus musculus with 6 samples.

Results

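The transcription factors described here set the identity of the stomach's epithelial lineages: Sox2, Gata4, Gata6, Foxa2, Foxa3, Foxq1, Esrrg, Bhlha15, Pdx1 and Hnf4a. They were taken as every probe annotated to one of these 10 genes, by symbol or by the current symbol of the same gene, which gave 10 of the 19057 named genes and 17 of the 45281 probes of the array. The study compared total RNA from the fundic gastric mucosa, the lining of the acid-secreting part of the stomach, of Lasp1 knockout and wild type mice, both on the C57Bl/6Ncr strain and 3 months old. Each genotype was measured on 3 Illumina arrays. Lasp1 encodes an actin-binding protein abundant in parietal cells. The labels name neither the Lasp1 allele nor the mouse behind each array, so every p-value below reflects only how far these samples spread, and that spread may be technical.

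The glandular stomach is lined by gastric units in which stem cells give rise to mucus-secreting pit cells, mucous neck cells, acid-secreting parietal cells, enzyme-secreting chief cells and hormone-secreting endocrine cells. Broad foregut factors such as Gata4, Gata6, the Foxa proteins and Hnf4a act across these lineages, whereas Esrrg, Bhlha15 and Foxq1 are tied to the parietal, chief and pit cell programmes in mice. Pdx1 marks the antrum, the distal part of the glandular stomach, and Sox2 is also used by the squamous epithelium of the forestomach. Several of these genes work in other organs too. Bhlha15 and Pdx1 are both pancreatic regulators.

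All values are linear probe intensities that the authors had scaled to a median of 1000 on every array, with background not subtracted, and differences are on the log2 scale. The arrays stood apart within each genotype. Wild type replicate 3 carried pancreatic acinar transcripts (Cpa1, a pancreatic carboxypeptidase, read 993, 896 and 6865 on knockout replicates 1 to 3, against 814, 821 and 449183 on wild type replicates 1 to 3). Knockout replicate 1 and wild type replicate 2 carried squamous transcripts: Krt13, a keratin of stratified epithelium, read 64696, 3687 and 1436 in knockout and 1222, 26492 and 1002 in wild type. Knockout replicate 1 also held smooth muscle transcripts, with a summed intensity over 10 tested genes of 323296 against 53081 to 139277 on the other arrays. That array was the highest for 4 of the 10 factors, and what part these transcripts had in their values was not tested. The targeted gene, Lasp1, read 88521, 111002 and 89823 in knockout and 270957, 275068 and 177315 in wild type on its brightest probe. Its log2 difference was -1.30 (SE 0.21), and although the groups did not overlap, limma did not call it (unadjusted p = 0.000412, adjusted p = 0.994). All 3 knockout arrays read far above background, and where the probe lies relative to the deleted part is not named in the labels. With 3 arrays a genotype, precision is limited by their number.

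Every one of the 10 factors was expressed. A probe counted as above background when it was brighter than the brightest of 17 probes of Y-linked genes on the same array, a limit of 1020 to 1212, because Y-linked probes were dim and Xist bright on all 6 arrays. By that measure 14 of the 17 probes were above background on all 6 arrays, and each gene had at least 1 such probe. The second Sox2 probe, ILMN_2656102, was above background on 4 arrays, with a range of 1074 to 1408. The probes ILMN_1229325 of Foxa2 (771 to 914) and ILMN_1245243 of Esrrg (748 to 876) were at background on every array. These last 2 also fell below the filter on dim probes, so 15 probes entered the tests. In bulk tissue, fewer cells of a type and less RNA per cell cannot be told apart.

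No factor passed the test between knockout and wild type mucosa. With limma over 22640 probes, 0 of the 15 probes reached a Benjamini-Hochberg adjusted p under 0.05, where 0.00883% of all tested probes did, and the adjusted p ranged from 0.994 to 0.998. None had an unadjusted p under 0.05 either, against 1.73% of all tested probes. When the title-number set entered as a block, 6 of the 15 had one, where 12% of all tested probes did, and none passed after adjustment (limma adjusted p = 0.399). These were the 3 probes of Bhlha15, with -0.76 (SE 0.24) on the brightest, and probes of Gata4 (0.64, SE 0.23), Foxa2 (0.52, SE 0.16) and Sox2 (0.37, SE 0.14). With the replicate number as a block it was 4 of 15, the 3 of Bhlha15 and that of Foxa3, where 3.33% of all tested probes did, again with no call (limma adjusted p = 0.863). The 3 Bhlha15 probes read 1 gene and are not separate evidence in either count. On brightest probes, 9 of the 10 genes had a positive difference and Bhlha15 a negative one. Their median log2 difference was 0.13, beside 0.10 over all tested probes. The 95% intervals reached 0.36 to 0.84 log2 units to either side of the estimate, and they are not adjusted for the number of probes. The adjusted threshold missed larger differences, that of Lasp1 (-1.30) among them, so the absence of a call does not show that a factor's levels were alike. The direction of the list depended on 1 array: without wild type replicate 3 the median over the brightest probes was -0.07, beside -0.0039 over all tested probes. Quantile normalization gives every array the same distribution, which by design brings the median over all tested probes near 0 (0.0029). It turned the differences of Gata6, Esrrg and Hnf4a to below 0.

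**Figure D1:**
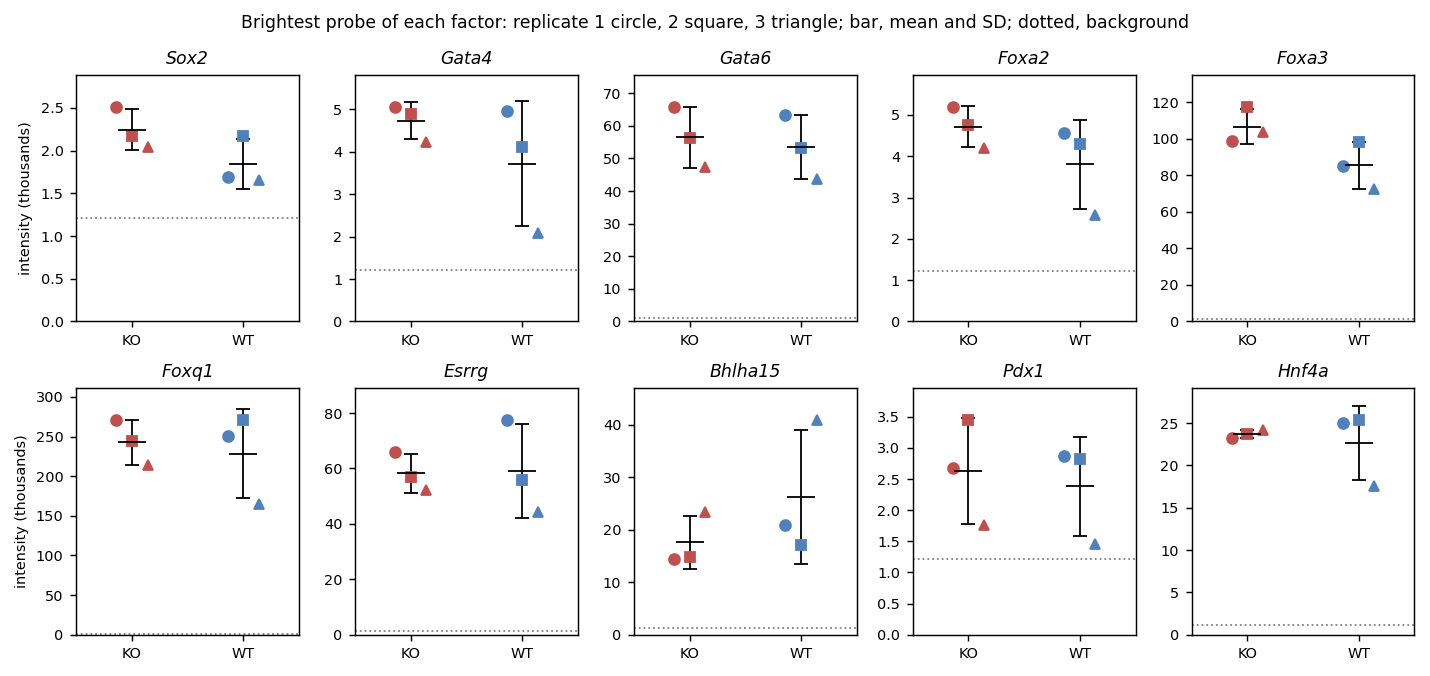
Intensity of the brightest probe of each factor (in units of 1000, linear axis from 0, one scale per panel), with knockout (KO) left of wild type (WT), mean and SD over 3 arrays, and the highest background limit (1212) dotted. Wild type replicate 3 (blue triangle) is the lowest array for 9 genes and the highest for Bhlha15.

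The broad foregut factors come first. Gata4, a zinc-finger factor of columnar foregut epithelium, read 5059, 4892 and 4230 on knockout replicates 1 to 3, against 4966, 4114 and 2085 on wild type replicates 1 to 3. The groups overlapped, and wild type replicate 3 stood alone at 45.9% of the mean of the other wild type arrays. The log2 difference was 0.43 (SE 0.31, 95% interval -0.31 to 1.18, limma adjusted p = 0.994), and 0.06 (SE 0.14) without that array. Its family member Gata6 read 65843, 56175 and 47345 in knockout and 63338, 53116 and 43771 in wild type on ILMN_2868133. These groups overlapped almost entirely, with a log2 difference of 0.08 (SE 0.19, limma adjusted p = 0.994). The dimmer Gata6 probe, ILMN_1255968, differed by 0.04 (SE 0.20). Both Gata6 probes turned to -0.05 and -0.08 without wild type replicate 3.

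Foxa2, a forkhead factor that opens chromatin in endoderm, read 5198, 4752 and 4196 in knockout and 4562, 4291 and 2567 in wild type. Its log2 difference was 0.35 (SE 0.24, limma adjusted p = 0.994), and it was 0.09 (SE 0.13) without wild type replicate 3, the low array. Hnf4a, a nuclear receptor of gut epithelium, read 23279, 23747 and 24222 in knockout, against 24958, 25362 and 17617 in wild type. The log2 difference was 0.09 (SE 0.17), and -0.08 (SE 0.11) without wild type replicate 3. On the other 5 arrays Hnf4a lay between 23279 and 25362.

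Foxa3, the forkhead relative of Foxa2 first known from liver and gut, was the only factor whose groups did not overlap on a tested probe. It read 98705, 117540 and 103872 in knockout and 85308, 98425 and 72769 in wild type. The lowest knockout array was thus barely above the highest wild type array. Knockout averaged 106706 ± 9732 and wild type 85501 ± 12829 (SD, n = 3 each). On the log2 scale the difference was 0.33 (SE 0.15, 95% interval -0.034 to 0.69). Neither limma (unadjusted p = 0.0691, adjusted p = 0.994) nor the exact two-sided permutation test passed, whose p of 0.1 is the lowest this design allows. That 1 of 15 probes did not overlap compares with 7.19% of all tested probes, 6.17% with every knockout array above every wild type array. Without wild type replicate 3 the difference was 0.22 (SE 0.14), and after quantile normalization 0.17. Within the arrays whose titles are numbered 4 to 6 it was 0.60, and within those numbered 1 to 3 it was 0.11, beside medians of 0.29 and 0.04 over all tested probes.

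Among the lineage factors, Esrrg, an orphan nuclear receptor of the parietal cell programme in mice, had close means in both groups, 58301 ± 7081 in knockout and 59137 ± 16882 in wild type (SD, n = 3 each). It read 65997, 56845 and 52061 in knockout and 77475, 55695 and 44242 in wild type, a log2 difference of 0.01 (SE 0.22, 95% interval -0.51 to 0.53). The second probe, ILMN_2695098, read 47470, 53960 and 46866 in knockout and 68070, 47303 and 41744 in wild type and differed by -0.05 (SE 0.20). Wild type replicate 1 was the highest and wild type replicate 3 the lowest array on both probes. Kcne2, a potassium channel subunit of parietal cells, chosen after its values were seen, read 19193, 17104 and 11971 in knockout and 25486, 16502 and 11588 in wild type, which is the same order of the 6 arrays as the brighter Esrrg probe. Ppargc1a, a coactivator of the oestrogen-related receptors, also chosen after its values were seen, was likewise highest on wild type replicate 1 (9878) and lowest on wild type replicate 3 (3983). Atp4a, the catalytic subunit of the proton pump, read 443047, 537817 and 539091 in knockout and 505989, 513259 and 438485 in wild type. Of 14 parietal genes tested, 0 passed in either direction. On wild type replicate 3, 9 of them were lowest, as were 64.9% of all tested probes. The 2 highest there were Atp4b (532362) and Cblif (362449), and so did not share the order of Esrrg. Cblif is also counted among the chief cell genes below, and Kcnq1, among the 14, was at background on every array.

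Foxq1, a forkhead factor needed for Muc5ac expression in mouse pit cells, read 270502, 244599 and 213610 in knockout and 250063, 270775 and 164271 in wild type. The log2 difference was 0.12 (SE 0.21), and -0.11 (SE 0.14) without wild type replicate 3. Muc5ac, the main pit cell mucin, read 510676, 538490 and 465741 in knockout and 490620, 516585 and 399506 in wild type, and was also lowest on wild type replicate 3. Of 7 pit cell genes tested, 3 were lowest there, beside 64.9% of all tested probes. Sox2 was dim, with 2513, 2169 and 2047 in knockout and 1688, 2174 and 1656 in wild type on ILMN_1248711. Its log2 difference was 0.29 (SE 0.16, 95% interval -0.08 to 0.66, limma adjusted p = 0.994), with wild type replicate 2 inside the knockout range. Because background was not subtracted, differences of a probe this dim are understated. The second Sox2 probe differed by -0.03 (SE 0.15) and was highest on wild type replicate 2 (1408), while ILMN_1248711 was highest on knockout replicate 1. Those are the arrays with squamous transcripts, and on them Trp63, the master regulator of stratified epithelium, read 6725 and 3125, against 725 to 919 on the other 4 arrays. Sox2 departed from the median of the other arrays by 0.30 and 0.09 there, whereas Trp63 departed by 3.16 and 2.05. Without both arrays the Sox2 difference was 0.33. What part the squamous transcripts had in the Sox2 values was not tested.

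**Figure D2:**
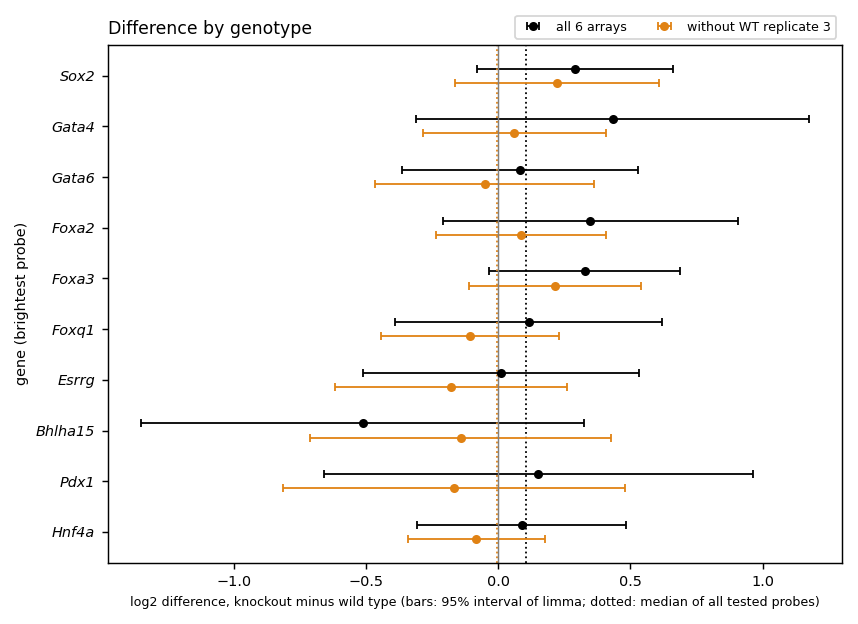
Log2 difference, knockout minus wild type, of the brightest probe of each factor with its 95% limma interval, over all 6 arrays (black) and without wild type replicate 3 (orange). The dotted lines are the medians of all tested probes (0.10 and -0.0039), and every interval includes 0 in both fits.

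Bhlha15 and Pdx1 each ranged over more than 1 log2 unit between arrays, Foxa3 was the factor whose groups did not overlap, and each had a single window in the promoter table, so the DNA just upstream of these 3 genes is shown. Each is the 250 bases before the annotated start, from RefSeq on GRCm38.p6, printed in the direction of transcription, with E-boxes, the sites bound by basic helix-loop-helix proteins such as Bhlha15, in capitals.
Bhlha15, chr5:144190036-144190285, plus strand: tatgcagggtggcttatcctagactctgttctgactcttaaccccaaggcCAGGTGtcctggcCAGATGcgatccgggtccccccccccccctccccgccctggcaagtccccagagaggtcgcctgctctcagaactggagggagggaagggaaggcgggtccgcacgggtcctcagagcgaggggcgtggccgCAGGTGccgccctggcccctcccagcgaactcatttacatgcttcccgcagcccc
Pdx1, chr5:147269847-147270096, plus strand: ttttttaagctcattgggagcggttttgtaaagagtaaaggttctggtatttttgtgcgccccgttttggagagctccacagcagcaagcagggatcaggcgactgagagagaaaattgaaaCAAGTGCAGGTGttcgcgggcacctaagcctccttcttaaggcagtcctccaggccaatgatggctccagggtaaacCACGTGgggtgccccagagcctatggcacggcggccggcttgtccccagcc
Foxa3, chr7:19023540-19023789, minus strand: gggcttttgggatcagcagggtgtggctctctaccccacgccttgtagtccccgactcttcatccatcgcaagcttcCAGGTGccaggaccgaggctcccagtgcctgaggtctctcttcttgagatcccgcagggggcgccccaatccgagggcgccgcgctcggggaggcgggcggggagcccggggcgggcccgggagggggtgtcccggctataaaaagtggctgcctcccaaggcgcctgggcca
The E-box was searched as CANNTG, which reads the same on both strands. The Bhlha15 and Pdx1 windows held 3 matches each, of which a pair in Pdx1 abut, and the Foxa3 window held 1. At least 1 match occurred in 66.2% of all 32851 such windows. The GATA factor site, searched as AGATAA, had no match on either strand of these windows and occurred in 9.99% of all windows. For forkhead proteins TGTTTAC was searched likewise, with no match here and matches in 3.17% of all windows. Foxa2, which also ranged over more than 1 log2 unit, had 3 windows, of which 1 held an E-box match and a GATA factor match. Of the 10 genes, 7 had an entry in the promoter table.

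Bhlha15, the helix-loop-helix factor that matures the secretory apparatus of chief cells and of pancreatic acinar cells in mice, was the factor with a difference below 0. It read 14419, 14841 and 23420 on knockout replicates 1 to 3, against 20952, 17029 and 40856 on wild type replicates 1 to 3. Wild type replicate 3 was the highest array and knockout replicate 3 the next, and the groups overlapped. Knockout averaged 17560 ± 5080 and wild type 26279 ± 12775.5 (SD, n = 3 each). On the log2 scale the difference was -0.51 (SE 0.35, 95% interval -1.35 to 0.32, limma adjusted p = 0.994). Without wild type replicate 3 it was -0.14 (SE 0.24). The other Bhlha15 probes, ILMN_2651388 and ILMN_2664777, differed by -0.37 (SE 0.30) and -0.50 (SE 0.35), and by -0.05 and -0.11 without that array. All 3 probes read 1 gene and are not separate evidence.

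These 2 high arrays were also the ones with pancreatic transcripts. Ptf1a, which with Rbpjl forms the acinar transcription complex, read 2762, 2623 and 3602 in knockout and 2581, 3538 and 17007 in wild type. Rbpjl read 2013, 2293 and 3418 in knockout and 2805, 2254 and 36467 in wild type. Nr5a2, a nuclear receptor of acinar cells, was at background on 5 arrays (786 to 896) and read 3397 on wild type replicate 3. All 20 pancreatic acinar genes tested were highest on wild type replicate 3, with summed intensities of 918129 to 1175862 in knockout and 1024087 to 10395405 in wild type. None of these 20 genes passed the test. On the other 5 arrays Clps read 513831 to 603537 and Pnliprp2 145786 to 202243, which was most of each sum there. Clps is also counted among the chief cell genes below. Relative to the median of the other 5 arrays, Bhlha15 was 2.40-fold higher on wild type replicate 3, a log2 departure of 1.26, while the median pancreatic acinar gene departed by 7.88. On knockout replicate 3 the median pancreatic acinar gene departed by 1.52. Cela2a, a pancreatic elastase, departed most there (5.43), with 58913 against 1288 to 2400 on the other arrays but wild type replicate 3. Not every gene of that list was high there, and Zg16 departed by -3.16. Bhlha15 departed by 0.46 on knockout replicate 3. It lay above background on every array, including those where Cpa1 was at background. What part the pancreatic transcripts had in the Bhlha15 values was not tested. Without both arrays that carried pancreatic transcripts, the Bhlha15 difference was -0.37 (SE 0.16, 95% interval -0.77 to 0.029), with no call by limma.

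No chief cell gene passed the test. Pgc, which encodes progastricsin, read 536572, 579282 and 584305 in knockout and 499744, 527626 and 613674 in wild type, and was highest on wild type replicate 3 as well. Of 5 chief cell genes tested, 0 passed in either direction, with a median log2 difference of 0.034. Genes tied to Bhlha15 in secretory cells also showed no call among 8 tested, with 3 positive and a median of -0.05. Rab26, a small GTPase of secretory granules that Bhlha15 activates in mouse chief cells, read 1343, 1553 and 2120 in knockout and 1520, 1521 and 9844 in wild type. Rab3d, another granule GTPase, read 78611, 80458 and 82382 in knockout and 91014, 72253 and 70534 in wild type. Rab26 was therefore high on the same array as Bhlha15 and Rab3d lowest there. Of the 8, 3 were highest and 3 lowest on wild type replicate 3, where 64.9% of all tested probes were lowest.

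**Figure D3:**
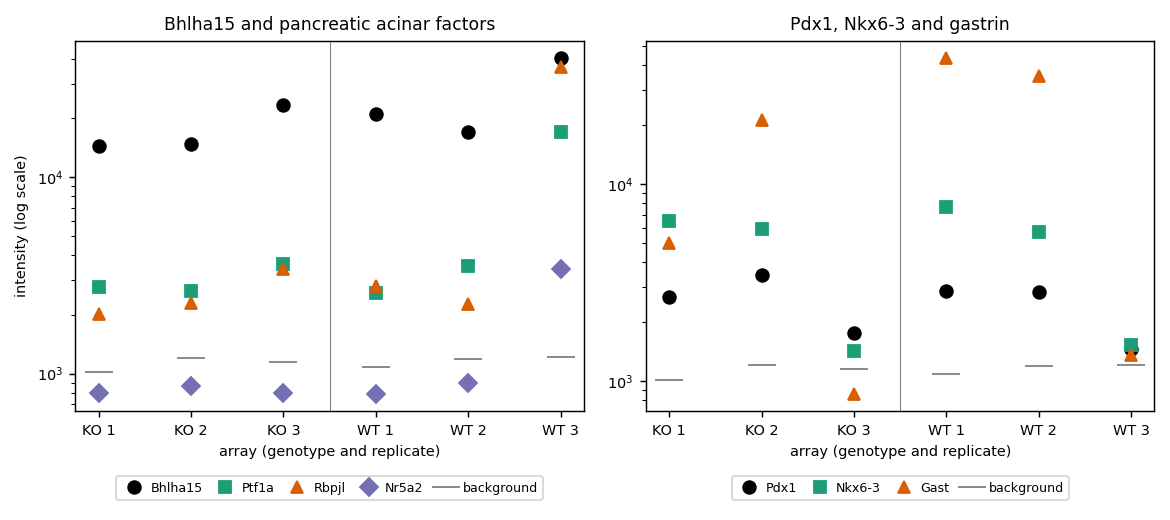
Intensity on each array (log axis) of Bhlha15 with the pancreatic acinar factors Ptf1a, Rbpjl and Nr5a2 (left) and of Pdx1 with Nkx6-3 and Gast (right), knockout arrays left of wild type arrays, grey ticks marking the background limit of each array. Bhlha15, Ptf1a and Rbpjl are highest on wild type replicate 3, and Pdx1 and Nkx6-3 are lowest on knockout replicate 3 and wild type replicate 3.

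Pdx1, the homeobox factor of antrum, duodenum and pancreas, was low on 1 array of each genotype. It read 2683, 3447 and 1755 on knockout replicates 1 to 3, against 2870, 2821 and 1462 on wild type replicates 1 to 3. Replicate 3 of each genotype was low and the other 4 arrays lay within 2683 to 3447. The log2 difference was 0.15 (SE 0.34, 95% interval -0.66 to 0.96, limma adjusted p = 0.994), -0.17 (SE 0.27) without wild type replicate 3 and 0.42 without knockout replicate 3. Both low arrays were those with pancreatic transcripts, where Cpa1 and Cela2a were higher. Gast and Nkx6-3, distal stomach genes given below, were also low on both. These patterns fall on the same arrays and cannot be told apart here. What part either had in the Pdx1 values was not tested.

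Gast and Nkx6-3, which are expressed in the distal stomach, were set beside Pdx1. Gast, the antral hormone gastrin, read 5003, 21207 and 861 in knockout and 43741, 35100 and 1354 in wild type, and was at background on knockout replicate 3. Gast was also low on knockout replicate 1, with a departure of -2.08, where Pdx1 and Nkx6-3 were not. Nkx6-3, a homeobox factor of distal stomach, was chosen after its values were seen. It read 6458, 5936 and 1423 in knockout and 7678, 5714 and 1518 in wild type. Gast and Nkx6-3 departed from the median of the other arrays by -3.97 and -1.97 on wild type replicate 3 and by -4.62 and -2.06 on knockout replicate 3, where Pdx1 departed by -0.95 and -0.68. Cdx2, which directs intestinal identity, stayed at background on all arrays (824 to 947), as did Cdx1, Isx and Atoh1, so 4 of the 5 intestinal factors were not above background anywhere. No list of antral genes was tested.

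Read by array, the factors varied chiefly on wild type replicate 3. Among the 15 probes, 1 was over 2-fold lower there than the median of the other 5 arrays, that of Gata4, and 2.7% of all tested probes were. A further 2 were over 2-fold higher, both of Bhlha15, against 0.64% of all tested probes. At 1.5-fold there were 4 lower and 3 higher, where 20.4% and 1.02% of all tested probes were. All 3 higher ones were probes of Bhlha15 and so read 1 gene. No probe of the 10 genes passed 2-fold in either direction on any other array, where 2.73% of all tested probes did. At 1.5-fold 1 of the 15 did, that of Pdx1 on knockout replicate 3, beside 10.5%. In the deposited values 9 of the 10 genes were lowest on wild type replicate 3, but so were 64.9% of all tested probes, whose median departure there was -0.31, beside -0.45 for the 10 genes. After quantile normalization 4 of the 10 were lowest there, beside 26.4% of tested probes. Gata4 (-0.73), Pdx1 (-0.57), Foxq1 (-0.48) and Foxa2 (-0.38) then still departed downwards, Gata6 (0.06), Hnf4a (0.07) and Esrrg (0.00) did not, and Bhlha15 departed by 1.61.

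**Figure D4:**
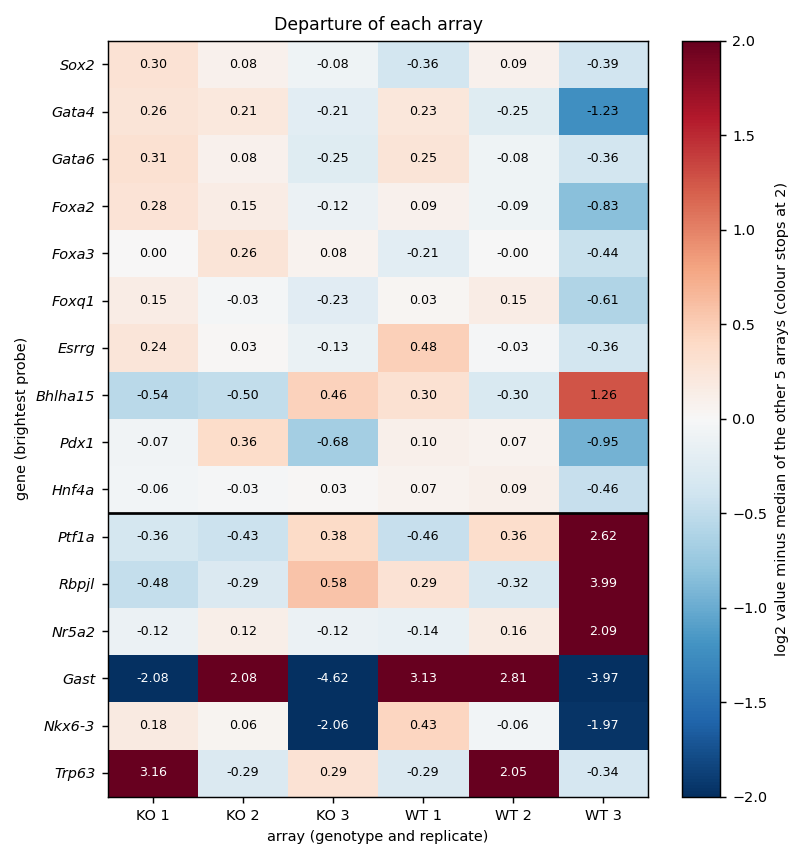
Log2 value of each gene's brightest probe minus the median of the other 5 arrays, for the 10 factors (above the line) and for genes of pancreas, antrum and squamous epithelium (below it), knockout arrays left of wild type arrays. Among the 10 factors the values past 1 in size are those of Gata4 (-1.23) and Bhlha15 (1.26) on wild type replicate 3.

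Sample titles carry numbers from 1 to 6 whose meaning the labels do not give. Numbers 4 to 6 are knockout replicates 2 and 3 and wild type replicate 3, and numbers 1 to 3 are knockout replicate 1 and wild type replicates 1 and 2. With genotype in the model, 0 of the 15 probes differed between these sets (limma adjusted p of 0.102 or more), where 0.724% of all tested probes did. At an unadjusted p under 0.05 there were 8 of 15, beside 28.2% of all tested probes. Those 8 were the 3 of Bhlha15, with 0.74 (SE 0.24) on the brightest, and single probes of Gata4 (-0.63, SE 0.23), Foxa2 (-0.50, SE 0.16), Foxq1 (-0.45, SE 0.15), Esrrg (-0.42, SE 0.17) and Gata6 (-0.38, SE 0.14). The 3 of Bhlha15 are not separate evidence, since they read the same gene. Foxq1 alone did not overlap between the sets, as did not 22.8% of all tested probes. Single arrays decided this comparison. Without knockout replicate 1, 6 of 15 passed, as did 18.4% of all tested probes, and without wild type replicate 3 none of the 15 had an unadjusted p under 0.05, beside 16.7%.

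The other epithelial factors were similar in direction. Of 30 further foregut epithelial factors listed, 26 were on the array, 22 entered the test and 0 passed in either direction. In this list 20 of 22 had a positive difference with a median of 0.23, beside 0.10 over all tested probes, and the median was 0.02 without wild type replicate 3. In 2 of the 22 the groups did not overlap, beside 7.19% of all tested probes. These were Gata5, the remaining gut GATA factor, and Foxa1, the closest relative of Foxa2. Gata5 read 10836, 10729 and 10494 in knockout and 8391, 8452 and 4989 in wild type (log2 0.60, SE 0.22, limma adjusted p = 0.994). Foxa1 read 39849, 43615 and 45118 in knockout and 37922, 32461 and 27936 in wild type (log2 0.40, SE 0.15, limma adjusted p = 0.994). Elf3, an epithelial ETS factor, differed by 0.47 (SE 0.22) and Esrra, a relative of Esrrg, by 0.35 (SE 0.20), with overlapping groups. Of 6 endocrine cell factors tested 0 passed, and Neurog3, which starts the endocrine lineage, was at background on every array.

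Genes whose pattern over the 6 arrays was most like a factor's were sought for the 4 factors that ranged over more than 1 log2 unit, among 11867 other genes, by the root mean square difference of centred log2 values. For Gata4 these were Scnn1a (0.04), Med15 (0.05), Tmem164 (0.05), Elf4 (0.06) and Il6st (0.06). Foxa2 was closest to Tnfaip3 (0.02), Zfp507 (0.03), R3hdm4 (0.04), Vamp8 (0.04) and Naa15 (0.04). Wild type replicate 3 was the lowest array for Gata4 and Foxa2, and the choice by likeness carries that over to these genes. The genes nearest to Bhlha15 were Klb (0.14), Syne4 (0.15), Ero1b (0.17), Aldh1l2 (0.21) and Pnliprp2 (0.22). Among them Ero1b, an oxidase of secretory-protein folding, read 7220, 10315 and 12746 in knockout and 10251, 9003 and 20440 in wild type. Pnliprp2 is one of the pancreatic acinar genes tested above. Wild type replicate 3 was the highest array for Bhlha15, and the choice by likeness likewise carries that over to the genes nearest to it. Pdx1 was most like Tob2 (0.10), Ly6g6e (0.11), Ttc22 (0.12), Mcf2l (0.12) and Rab27a (0.12).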

How the data were processed

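Total RNA was made into biotin-labelled cRNA for Illumina arrays, per the labels' protocols. The values are the deposited intensity table, with 1 linear intensity per probe and array. From the values, the authors scaled each array to a median of 1000 without subtracting background; no scanner, software or filter is named in the labels. Probes were named from the platform annotation: 34885 had 1 gene symbol, 18 several and 10378 none, and symbols were updated through GRCm38.p6.

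Intensities were floored at 16 and log2 transformed. The 22640 probes whose mean lay above the median probe were tested with limma 3.58.1 in R 4.3.3, two-sided, Benjamini-Hochberg adjusted p under 0.05. Single probes also had an exact permutation test. The steps were tested on simulated data. Signal over background stands for depth: 35.8% to 48.5% of probes were above background.

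The members and lists were chosen with earlier results of these data known. All probes of the factors were named, up to 4 genes of each list with the largest difference, fixed markers, and for factors ranging over 1 log2 unit the 5 most alike genes. Genes named outside this rule include Kcne2, Ppargc1a, Nkx6-3, Rab3d, Neurog3, Cdx1, Isx, Atoh1, Atp4b, Cblif, Clps and Kcnq1. Alternatives were other normalizations, filters, models and left-out arrays, and 2 were added after seeing the data. The deviations of same-numbered replicates correlated at 0.045, -0.30 and 0.53 for replicates 1 to 3. Among same-numbered arrays only those of replicate 3 thus deviated together. Knockout replicate 1 and wild type replicate 2, the arrays with squamous transcripts, correlated at 0.55. Replicate numbers were not treated as pairs. Figures used matplotlib 3.10.9.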

Additional observations from a re-analysis of the deposited data

How the results depend on the processing

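No alternative gave a genotype call for any of the 15 probes, with limma adjusted p of 0.128 or more. All 10 factors stayed above background at the 95th percentile of olfactory and vomeronasal receptor probes, and 9, all but Pdx1, at 1.5 times the array median. Over all probes 2 passed with all arrays, 1816 with array weights, where wild type replicate 2 had a weight of 38.8, 8 with squamous and pancreatic scores as covariates, 0 to 3 on leaving out single arrays (0 for each array but wild type replicate 3), and 0 without both arrays carrying pancreatic transcripts and 0 without both carrying squamous transcripts. With the replicate number as a block 0 of all probes and 0 of the 15 passed, and not every array correlated best with its own number. Departures past 2-fold numbered 3, and 8 at a fold of 1.5. The count lowest on wild type replicate 3 was 9, and 4 with quantile normalization, also after normexp. Probes of the factors called by title number were 0, and 0 to 6 on leaving out single arrays, while over all probes 164 were called with all arrays, 631 after quantile normalization, 449 after cyclic loess, 384 with no filter, 40 with array weights and 1 to 4177 on leaving out single arrays.

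The log2 differences between knockout and wild type that changed sign follow. Quantile normalization gave Hnf4a ILMN_1237767 -0.098, Gata6 ILMN_1255968 -0.097, Gata6 ILMN_2868133 -0.094 and Esrrg ILMN_2973156 -0.19. Cyclic loess gave Foxq1 -0.058, Hnf4a -0.097, Gata6 ILMN_1255968 -0.099, Gata6 ILMN_2868133 -0.10 and Esrrg ILMN_2973156 -0.17. Normexp with quantile normalization gave Hnf4a -0.10, Gata6 ILMN_1255968 -0.12, Gata6 ILMN_2868133 -0.095 and Esrrg ILMN_2973156 -0.19. Array weights gave Foxq1 -0.19, Hnf4a -0.087, Sox2 ILMN_1248711 -0.00089, Pdx1 -0.089, Bhlha15 ILMN_2651389 0.016 and Esrrg ILMN_2695098 0.093. The title-number block gave Sox2 ILMN_2656102 0.0059 and Esrrg ILMN_2695098 0.0056. The squamous and pancreatic covariates gave Foxq1 -0.054, Hnf4a -0.039, Gata6 ILMN_1255968 -0.075, Pdx1 -0.13, Gata6 ILMN_2868133 -0.030 and Esrrg ILMN_2973156 -0.14. The mean of the probes of a gene gave Esrrg ILMN_2973156 -0.022. Leaving out both arrays carrying pancreatic transcripts gave Foxq1 -0.017, Hnf4a -0.098 and Esrrg ILMN_2973156 -0.10. Leaving out both arrays carrying squamous transcripts gave Gata6 ILMN_1255968 -0.11, Sox2 ILMN_2656102 0.11, Gata6 ILMN_2868133 -0.030 and Esrrg ILMN_2973156 -0.11. On leaving out single arrays the ranges were -0.083 to 0.23 for Gata6 ILMN_1255968, -0.052 to 0.21 for Gata6 ILMN_2868133, -0.18 to 0.23 for Esrrg ILMN_2973156, -0.17 to 0.42 for Pdx1 ILMN_2604604, -0.10 to 0.093 for Sox2 ILMN_2656102, -0.20 to 0.15 for Esrrg ILMN_2695098, -0.11 to 0.25 for Foxq1 ILMN_1224637 and -0.083 to 0.18 for Hnf4a ILMN_1237767. Between the title-number sets these changed sign. Quantile normalization gave Foxa3 0.11, Hnf4a 0.061, Sox2 ILMN_1248711 0.0084 and Esrrg ILMN_2695098 0.060. Cyclic loess gave Foxa3 0.15, Hnf4a 0.068 and Esrrg ILMN_2695098 0.090. Normexp with quantile normalization gave Foxa3 0.11, Hnf4a 0.062, Sox2 ILMN_1248711 0.023 and Esrrg ILMN_2695098 0.060. On leaving out single arrays the ranges were -0.33 to 0.16 for Foxa3 ILMN_1228748, -0.51 to 0.043 for Hnf4a ILMN_1237767, -0.23 to 0.041 for Sox2 ILMN_2656102 and -0.44 to 0.083 for Esrrg ILMN_2695098. The causes of these changes were not tested. Dim probes, such as those of Sox2 and Pdx1, carry understated differences because background was not subtracted.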
